A study of Homo sapiens with 4 samples.

Results

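The genes described here are 47 genes of S phase and DNA replication, taken by name from the table of read counts. All 47 are rows of that table, out of 55765 gene symbols, and all 47 had enough reads to be tested, among 18900 genes tested in all. Their RNA was read in SK-N-BE(2)C cells, a human neuroblastoma line in long use, grown in RPMI1640 with fetal calf serum. In the ATRA group the cells had been kept for 144 h with 10 µM all-trans retinoic acid, the acid form of vitamin A that makes many neuroblastoma lines differentiate. In the ethanol group they had been kept for the same time with the solvent. Each group holds 2 libraries of total RNA depleted of ribosomal RNA, called replicate 1 and replicate 2 after the number in their titles (the first bears none). No label states that libraries within a group are independent cultures. P-values therefore measure the spread between these libraries only, which may be technical, and 1 cell line stands for the tumour.

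DNA is copied once per cell cycle. In G1 the origin recognition complex, CDC6 and CDT1 load the MCM2-7 helicase onto DNA, which is called licensing, and at the start of S phase CDC45 and GINS join it to form the active helicase. Primase and the polymerases then copy both strands with the sliding clamp PCNA, while ribonucleotide reductase and thymidylate synthase supply the deoxynucleotides. Most of these genes are transcribed at the G1/S border by E2F factors and are switched off in cells that leave the cycle, which is why they serve as readouts of proliferation. In RNA from a whole culture, fewer cells in S phase and less of each RNA per cell cannot be told apart.

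Total counts ranged from 12850462 to 19883465 per library, and the 47 genes had between 71 and 7694 reads in a library. Levels are given as CPM, the usual measure of reads relative to library size, with sizes adjusted by the TMM method, and differences as log2 values of ATRA over ethanol from edgeR, so that -1 means a level lower by a factor of 2. The treatment labels were checked on retinoid targets. CYP26A1, which breaks down retinoic acid, had 140 and 267 CPM with ATRA and 0 reads in both ethanol libraries, and the receptor gene RARB rose (adjusted p 0.0319, edgeR). All 9 markers of adrenergic neuroblastoma were detected, and GATA3 was the one called, lower. Of 7 tested markers of mesenchymal-type cells 3 were called higher with ATRA (FN1, VIM and COL3A1). The summed level of the 7 was 1014 and 1015 CPM with ATRA, mostly from FN1 and VIM. With ethanol it was 183 and 262 CPM, mostly from PDGFRB (53.2 and 115 CPM) and TWIST1 (72.5 and 82.8 CPM). PDGFRB and TWIST1 of the same list were at -0.46 ± 0.43 and -0.20 ± 0.24, COL1A1 and SNAI2 were not called, and COL1A2 and PRRX1 had at most 7 reads in a library. None of 5 tested Schwann cell markers (17.9 and 22.4 CPM in all with ATRA, 7.93 and 12.4 CPM with ethanol) and neither of 2 tested blood and epithelial markers was called, and FOXD3, CD68 and KRT5 were at 0 in all libraries. The part of these other markers in the results below was not tested.

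S-phase and replication genes were lower with ATRA as a group, with a mean level in ethanol from 1.23 (CCNE1) to 2.90 (MCM10) times that with ATRA in the fit. Their summed level was 1686 and 2804 CPM in ATRA replicates 1 and 2 and 4378 and 5127 CPM in ethanol replicates 1 and 2. Thus the 47 genes took 0.160% and 0.284% of all reads with ATRA, and 0.443% and 0.520% with ethanol. The median log2 difference was -1.13, against 0.01 over all genes tested, and 45 of the 47 lay within 0.5 of that median. The lowest was MCM10 at -1.53 and the highest CCNE1, for cyclin E1, at -0.30. In 43 of 47 genes both ATRA libraries were below both ethanol libraries, compared with 21.7% of all genes tested, and 0 genes had both above (23.8% of all genes). The exceptions were MCM6, RFC5, RPA2 and CCNE1.

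No member passed the test across all genes, so none is called changed here. With edgeR's quasi-likelihood test and a Benjamini-Hochberg threshold of 0.05, 0 of 47 were called lower and 0 higher, while 0.153% of all genes were called lower, 0.545% higher and 0.698% in either direction. The smallest adjusted p was 0.0774, for FEN1. At an unadjusted p under 0.05, 39 of 47 were lower and 0 higher, beside 6.49% and 9.43% of all genes tested. These genes and the gene lists below were chosen with earlier results of these data known. The 47 genes also varied together between libraries, so shares set beside those of all genes are descriptions, not separate observations. DESeq2 called 18 lower (2.66% of all genes) and limma-voom 0, and edgeR without a filter on low counts called 30 lower (1.86% of all genes). A fit with the title number as a replicate block called more members lower than any of these and is given in the closing sections.

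The libraries of a group stood apart in these genes. ATRA replicate 1 was the lowest of the 4 libraries in 46 of 47 genes, GINS4 being the exception, and in 26.8% of all genes tested. The median log2 difference between the ATRA libraries was 0.79 in these genes and 0.02 in all genes tested, and between the ethanol libraries 0.18 and -0.01. Within replicate 1 the median difference of ATRA from ethanol was -1.49 and within replicate 2 it was -0.89. Lower values within both numbers were found in 46 of 47 genes (35.3% of all genes), and the difference was larger within replicate 1 in 44 of 47 (52.1% of all genes). Without ATRA replicate 1 the median was -0.81 and 0 genes were called lower (1.11% of all genes). Without ATRA replicate 2 it was -1.57 with 33 called (2.92%). Leaving out ethanol replicate 1 gave 12 calls (1.67%) and leaving out ethanol replicate 2 gave 4 (1.91%). Mitochondrial ribosomal RNA took 2.49% and 5.96% of reads in ATRA 1 and ethanol 1, and 0.130% and 0.0291% in ATRA 2 and ethanol 2. Its part in the difference between replicate numbers was not tested.

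**Figure D1:**
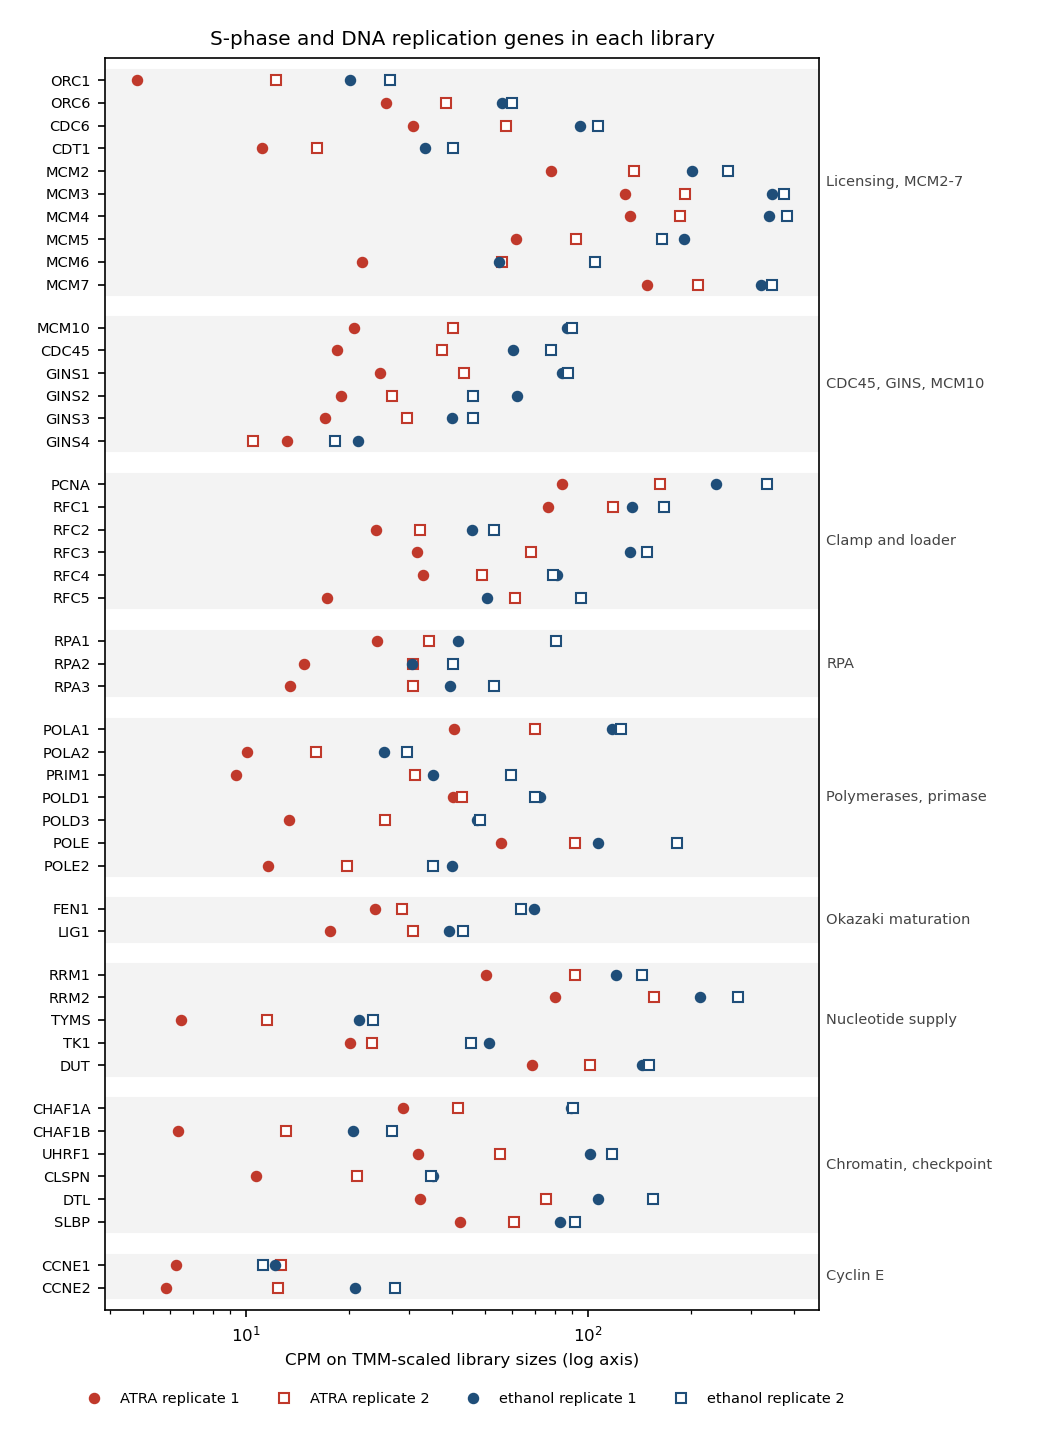
Level of each of the 47 genes in each library, in CPM on a log axis, with genes in rows grouped by role. Red marks are ATRA and blue marks ethanol, filled for replicate 1 and open for replicate 2; red lies left of blue in 43 genes, and the filled red mark is the lowest in 46.

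The DNA at the start sites of these genes was examined for the words that E2F and NF-Y are known to recognise. NF-Y is an activator that binds CCAAT boxes. RefSeq windows (build GRCh38.p14) from 250 bases before to 50 bases after the start were found for 40 of the 47 genes, taking the first window listed for a symbol. MCM4, MCM5, GINS4, RPA2, RPA3, POLD3 and CCNE2 had no entry. An E2F-type word (TTTCGCGC, TTTGGCGC or TTTCCCGC on either strand) was present in 20 of 40 windows (50%), beside 2.79% of all 27305 windows and 4.30% of the 10417 windows of genes tested. CCAAT, on either strand, was present in 23 (57.5%), beside 35.7% of all windows and 36.8% of those of genes tested. A CHR-type word (TTTGAA or TTCGAA, on either strand) was present in 2 (5%), beside 16.6% of all windows and 11.5% of those of genes tested. Opposite-strand matches of the E2F-type words can overlap, as they do in MCM2 and MCM6. A match is a description of the letters, not evidence of binding. Most of the listed genes are of a class transcribed by E2F, so the share of E2F-type words describes the list, not the response to ATRA.

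The stretches below run 5′ to 3′ on the strand of the gene, from 160 bases before to 15 bases after the start, with E2F-type and CCAAT matches in capitals. They were picked to show windows that hold a word: MCM6 and MCM2 with overlapping E2F-type words, CDC6, PCNA and again MCM6 with both kinds of word, RFC3 with a single E2F-type word, and RRM2 with CCAAT boxes alone. The 9 windows with no match, among them those of FEN1, TK1 and RFC4, are not printed. They lie at chr17:40287719-40287893 (CDC6, plus strand), chr3:127598251-127598425 (MCM2, plus), chr2:135876429-135876603 (MCM6, minus), chr20:5126608-5126782 (PCNA, minus), chr13:33817989-33818163 (RFC3, plus) and chr2:10122579-10122753 (RRM2, plus).
CDC6: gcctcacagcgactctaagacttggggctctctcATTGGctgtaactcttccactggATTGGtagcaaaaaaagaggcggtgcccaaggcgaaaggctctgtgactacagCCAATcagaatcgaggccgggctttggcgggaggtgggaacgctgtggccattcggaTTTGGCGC
MCM2: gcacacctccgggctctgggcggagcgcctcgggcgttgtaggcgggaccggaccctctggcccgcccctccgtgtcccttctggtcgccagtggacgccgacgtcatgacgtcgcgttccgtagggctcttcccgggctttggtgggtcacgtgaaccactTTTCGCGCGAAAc
MCM6: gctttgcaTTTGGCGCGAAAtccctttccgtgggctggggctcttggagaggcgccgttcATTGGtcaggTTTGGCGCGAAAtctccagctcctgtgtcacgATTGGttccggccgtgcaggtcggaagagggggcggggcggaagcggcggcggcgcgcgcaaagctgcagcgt
PCNA: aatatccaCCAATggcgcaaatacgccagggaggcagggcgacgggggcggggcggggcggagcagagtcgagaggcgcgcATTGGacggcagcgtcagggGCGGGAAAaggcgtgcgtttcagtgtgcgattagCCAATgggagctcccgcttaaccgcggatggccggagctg
RFC3: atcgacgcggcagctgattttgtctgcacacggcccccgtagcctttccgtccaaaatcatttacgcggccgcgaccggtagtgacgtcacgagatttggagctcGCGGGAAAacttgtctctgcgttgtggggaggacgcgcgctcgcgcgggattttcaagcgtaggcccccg
RRM2: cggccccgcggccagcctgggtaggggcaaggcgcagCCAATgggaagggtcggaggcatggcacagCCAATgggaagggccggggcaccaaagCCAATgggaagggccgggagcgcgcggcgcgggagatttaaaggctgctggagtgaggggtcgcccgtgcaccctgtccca

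The difference with ATRA was set beside the words present. Members with an E2F-type word had a median log2 difference of -1.18 (20 genes) and those without of -1.01 (20 genes). With and without CCAAT the medians were -1.17 (23 genes) and -1.07 (17 genes). Among the genes tested other than these 47, the 428 with an E2F-type word had a median of -0.12, and both ATRA libraries were below both ethanol libraries in 31.8% of them. The 9949 without one had a median of 0.04 and a share of 22.5%. These are descriptions of the windows listed, and the differences between the medians were not tested.

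The 10 licensing genes had a median log2 difference of -1.17. Of the origin recognition complex they hold ORC1 and ORC6 only, and the other subunits had values nearer 0 or above it, given further on. ORC1, the subunit of the origin recognition complex that comes and goes with the cycle, had 4.81 and 12.3 CPM with ATRA and 20.1 and 26.4 CPM with ethanol (log2 -1.44 ± 0.50, SE; adjusted p 0.236, edgeR). ORC6, the smallest subunit, had 25.6 and 38.5 CPM against 56.1 and 60.0 CPM. CDC6, the loading ATPase, had 30.7 and 57.5 CPM against 94.8 and 107 CPM. The groups did not overlap in these 3 genes, and in each the ATRA 1 library was the lowest. CDT1, which brings the helicase to the origin, had 11.1 and 16.2 CPM with ATRA and 33.4 and 40.2 CPM with ethanol, a difference of -1.43 ± 0.31 with adjusted p 0.105 (edgeR). Its differences within replicate 1 and replicate 2 were -1.58 and -1.31, closer to each other than in all but 4 members (POLE, GINS4, POLD1 and RFC2).

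The 6 helicase subunits kept close together, between -1.21 for MCM5 and -0.90 for MCM7. MCM4 had 132 and 186 CPM with ATRA and 338 and 381 CPM with ethanol (-1.18 ± 0.27, adjusted p 0.118, edgeR). MCM6 had 21.9 and 56.2 CPM with ATRA and 55.1 and 105 CPM with ethanol (-1.04 ± 0.52, adjusted p 0.415, edgeR). Here the groups touched, since ATRA 2 lay just above ethanol 1, while within each replicate number MCM6 was lower by nearly the same amount as its partners (-1.33 and -0.90). MCM2, MCM3, MCM5 and MCM7 had non-overlapping groups, with differences of -1.10, -1.17, -1.21 and -0.90.

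Levels per kilobase of the principal GENCODE 29 transcript allow the subunits to be set beside each other. With ethanol MCM7 stood at 113 ± 5.73 and MCM3 at 112 ± 6.14 CPM per kb (SD, n = 2), which did not differ beyond their spread. They were followed by MCM4 at 85.9 ± 7.38, MCM2 at 63.4 ± 10.6, MCM5 at 50.2 ± 5.27 and MCM6 at 21.4 ± 9.44 CPM per kb. With ATRA the order was the same, from MCM7 at 60.5 ± 14.6 to MCM6 at 10.4 ± 6.49 CPM per kb. Of all 47 genes PCNA had the highest level per kb with ethanol (210 ± 50.3), and GINS4 (5.13 ± 0.564), CHAF1B (5.28 ± 0.999) and CCNE1 (5.72 ± 0.334) had the lowest, which did not differ beyond their spread. The length of the transcripts used by these cells is not known, so the order is approximate.

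Genes that turn the loaded helicase on had a median of -1.27 over 6 genes. MCM10, an initiation factor that helps the helicase open the origin, had 20.7 and 40.3 CPM with ATRA and 87.2 and 89.7 CPM with ethanol, a difference of -1.53 ± 0.36 (adjusted p 0.121, edgeR). CDC45 had 18.5 and 37.5 CPM against 60.4 and 78.1 CPM (-1.31 ± 0.39). Neither gene's groups overlapped, and their ethanol libraries lay closer together than their ATRA libraries did. The 4 GINS subunits, which form one complex, lay between -1.33 and -0.74. GINS1 was at -1.33 and GINS2 at -1.24, with 18.9 and 26.7 CPM for GINS2 with ATRA and 61.9 and 46.1 CPM with ethanol. GINS3 was at -0.89, and GINS4 at -0.74 ± 0.31 (13.2 and 10.5 CPM against 21.2 and 18.2 CPM; adjusted p 0.329, edgeR). GINS4 was the one member with less RNA in ATRA 2 than in ATRA 1.

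The sliding clamp PCNA, a ring that holds polymerases on DNA, had 84.1 and 163 CPM with ATRA and 237 and 333 CPM with ethanol (-1.21 ± 0.39, adjusted p 0.209, edgeR). The groups did not overlap. The subunits of its loader, replication factor C, had values from -1.50 to -0.63, and differences between them were not tested. RFC3 had 31.6 and 68.4 CPM with ATRA against 133 and 149 CPM, a difference of -1.50 ± 0.40 (adjusted p 0.150, edgeR). RFC4 had 32.9 and 48.9 CPM against 81.0 and 78.9 CPM (-0.97 ± 0.28). RFC1, the large subunit, had 76.4 and 118 CPM against 135 and 167 CPM (-0.63 ± 0.30), and RFC2 was at -0.82 ± 0.27. RFC5 had 17.3 and 61.1 CPM with ATRA and 50.5 and 95.7 CPM with ethanol. Its replicate 2 library was higher than its replicate 1 library in both groups. Replicate 2 was higher in 46 of the 47 genes with ATRA and in 37 with ethanol. The groups of RFC5 overlapped, and its difference was -0.90 ± 0.62 (adjusted p 0.581, edgeR, with -1.54 and -0.65 within replicates).

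Replication protein A coats single-stranded DNA at the fork. RPA1 had 24.2 and 34.3 CPM with ATRA and 41.6 and 80.9 CPM with ethanol (-1.07 ± 0.39, adjusted p 0.265, edgeR). RPA3 had 13.5 and 30.7 CPM against 39.4 and 53.3 CPM (-1.07 ± 0.44). In both genes the groups lay apart, and RPA1 was one of 3 members with a larger difference within replicate 2 than within replicate 1 (-0.78 and -1.24), along with GINS4 and POLE. RPA2 had 14.8 and 30.7 CPM against 30.6 and 40.2 CPM, so that ATRA 2 and ethanol 1 were level (-0.64 ± 0.41, adjusted p 0.540, edgeR).

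Polymerase and primase genes had a median of -1.13 over 7 genes, and the groups overlapped in none (21.7% of all genes tested had both ATRA libraries below). Polymerase alpha with primase lays the primers: POLA1 was at -1.13, POLA2 at -1.07 and the primase subunit PRIM1 at -1.23 ± 0.59 (9.35 and 31.1 CPM against 35.3 and 59.8 CPM; adjusted p 0.387, edgeR). Among leading strand polymerase genes, POLE2 had 11.6 and 19.7 CPM with ATRA and 40.0 and 35.2 CPM with ethanol (-1.26 ± 0.34, adjusted p 0.153, edgeR), and the catalytic POLE was at -0.98 ± 0.38. Among lagging strand polymerase genes, POLD3 had 13.3 and 25.4 CPM against 47.5 and 48.2 CPM (-1.30 ± 0.36, adjusted p 0.163, edgeR). The catalytic POLD1 was at -0.77 ± 0.23, with ATRA libraries of 40.2 and 42.9 CPM that lay closer together than those of any other member. In the annotation POLA2, PRIM1 and POLD1 share 35.1%, 16.2% and 8.64% of their exon length with genes on the same strand. Part of their reads is therefore uncertain.

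The flap nuclease FEN1 and the ligase LIG1 finish Okazaki fragments, the short pieces of the lagging strand. FEN1 had 23.8 and 28.5 CPM with ATRA and 69.5 and 63.8 CPM with ethanol, a difference of -1.35 ± 0.25 (adjusted p 0.0774, edgeR; -1.54 and -1.16 within replicates). LIG1 had 17.5 and 30.9 CPM against 39.1 and 43.1 CPM (-0.76 ± 0.34, adjusted p 0.352, edgeR; -1.15 and -0.48 within replicates). Both had groups that did not overlap, and the ATRA libraries of FEN1 agreed more closely than those of LIG1.

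Deoxynucleotide supply genes had a median of -1.04 over 5 genes, none with overlapping groups (beside 21.7% of all genes with both ATRA libraries below). Thymidine kinase TK1, the salvage enzyme of cycling cells, had 20.2 and 23.3 CPM with ATRA and 51.2 and 45.4 CPM with ethanol (-1.15 ± 0.25, adjusted p 0.107, edgeR). Thymidylate synthase TYMS had 6.43 and 11.5 CPM against 21.4 and 23.5 CPM (-1.32 ± 0.38, adjusted p 0.171, edgeR). In the annotation TYMS shares 46.6% of its exon length with genes on the other strand, so part of its reads is uncertain. The ribonucleotide reductase subunits were at -0.90 ± 0.34 for RRM1 (50.3 and 91.6 CPM against 121 and 144 CPM) and -1.04 ± 0.38 for RRM2 (79.9 and 156 CPM against 213 and 275 CPM), differing by less than their errors. RRM2 shares 20.2% of its exon length with a gene on the same strand, which leaves part of its reads uncertain. DUT, which removes dUTP, was at -0.80 ± 0.28.

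Genes that rebuild chromatin behind the fork, guard it and serve histone mRNA had a median of -1.29 over 6 genes. CHAF1A, the large subunit of the chromatin assembly factor that places new histones at PCNA, had 28.8 and 41.8 CPM with ATRA and 89.2 and 90.7 CPM with ethanol (-1.35 ± 0.28, adjusted p 0.0943, edgeR). Its partner CHAF1B was at -1.29 ± 0.43. UHRF1, which directs maintenance DNA methylation, had 31.8 and 55.2 CPM against 101 and 117 CPM (-1.33 ± 0.33, adjusted p 0.132, edgeR). The groups were apart in each of these genes. DTL, part of the ligase that destroys CDT1 in S phase, was at -1.28 ± 0.45 and the checkpoint adaptor CLSPN at -1.13 ± 0.38. SLBP, the stem-loop binding protein of histone mRNA, had 42.3 and 60.9 CPM against 82.8 and 91.4 CPM, a smaller difference of -0.76 ± 0.28 (adjusted p 0.263, edgeR).

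Cyclin E drives CDK2 at the start of S phase and is made by a pair of genes, whose values were unlike in these libraries. CCNE2 had 5.83 and 12.4 CPM with ATRA and 20.8 and 27.2 CPM with ethanol (-1.40 ± 0.44, adjusted p 0.201, edgeR), with groups apart. CCNE1 had 6.23 and 12.7 CPM with ATRA and 12.2 and 11.2 CPM with ethanol, so that ATRA 2 was the highest library (-0.30 ± 0.44, adjusted p 0.843, edgeR). CCNE1 was the one member not lower within both replicates, with -0.95 and 0.18, and without ATRA replicate 1 its sign turned (log2 0.11). CCNE2 shares 37.1% of its exon length with genes on the other strand, which leaves some of its reads uncertain.

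**Figure D2:**
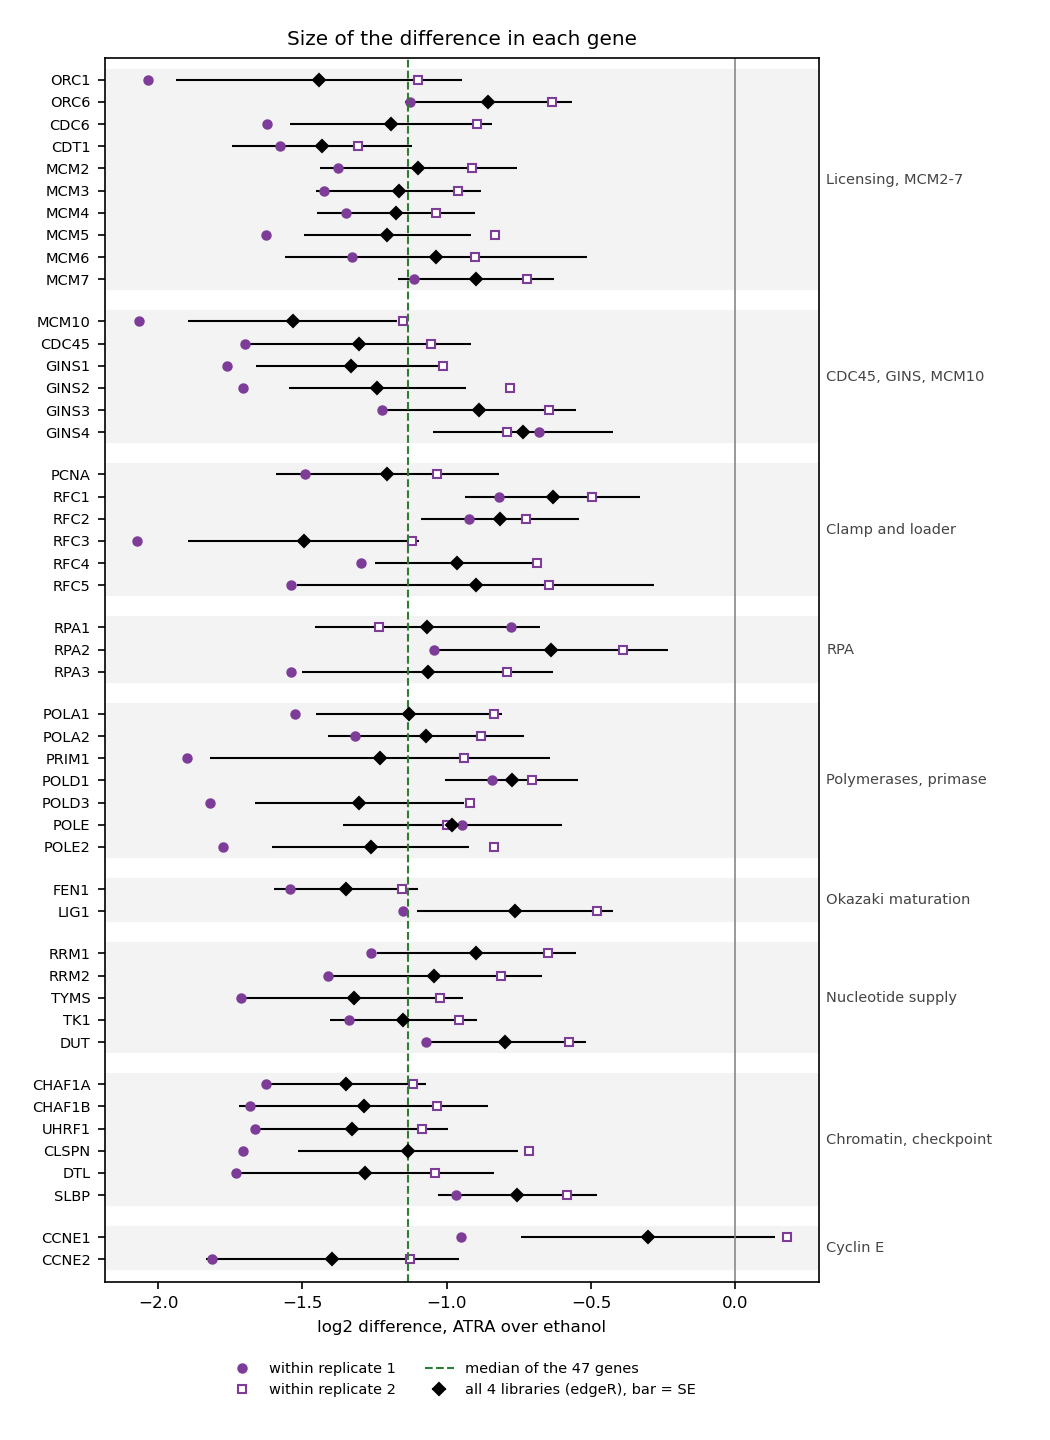
Log2 difference of ATRA over ethanol for each gene, by role: diamonds are the fit to all 4 libraries with bars of 1 SE, filled circles the difference within replicate 1 and open squares that within replicate 2. The dashed line is the median of -1.13; open squares lie nearer 0 than filled circles in 44 genes, and CCNE1 alone has a mark above 0.

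Other genes of DNA replication, a list of 50 outside the 47, had a median of -0.88 (-1.04 and -0.76 within replicates), with 0 called by edgeR. DESeq2 called 13 lower (2.66% of all genes). At an unadjusted p under 0.05 in edgeR 29 were lower and 0 higher (6.49% and 9.43% of all genes), and 39 had both ATRA libraries below both ethanol libraries (21.7% of all genes). The smallest p belonged to MCM8, a helicase of recombination, which had 45.7 and 44.9 CPM with ATRA and 104 and 99.0 CPM with ethanol (-1.16 ± 0.23, adjusted p 0.0876, edgeR). TICRR, an initiation factor that brings CDC45 to origins, had 24.0 and 27.5 CPM against 63.7 and 55.3 CPM (-1.21 ± 0.25). RECQL4, a helicase of initiation, had 18.6 and 14.8 CPM against 43.0 and 34.0 CPM (-1.21 ± 0.29). In MCM8 and RECQL4 the differences within replicate 1 and replicate 2 were close (-1.18 and -1.14 for MCM8, -1.21 and -1.20 for RECQL4). MKI67, a marker of cycling cells outside replication, was at -1.25 ± 0.49 (62.7 and 168 CPM against 225 and 323 CPM; adjusted p 0.295, edgeR).

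Partner subunits of the members' complexes, named here after their values were seen, had other values in some cases. In the origin recognition complex ORC1 and ORC6 were at -1.44 and -0.86, while ORC2, ORC3, ORC4 and ORC5 were at -0.52 ± 0.27, -0.35 ± 0.37, 0.49 ± 0.31 and -0.45 ± 0.28. ORC4 had 44.8 and 64.5 CPM with ATRA against 32.3 and 45.6 CPM with ethanol. In polymerase epsilon POLE3 was at -0.93 ± 0.23 beside POLE2 and POLE, but POLE4 was at 0.12 ± 0.43. In polymerase delta POLD2 was at -0.74 ± 0.24 and POLD4, the small accessory subunit, at 1.23 ± 0.69, with 7.93 and 3.11 CPM against 3.31 and 1.44 CPM. None of these partners passed the test (edgeR adjusted p of 0.129 or more), and the differences between partners were not tested.

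Enzymes related to the members but not tied to S phase were read in the same libraries, and their difference from the members was not tested. Of 11 tested, which serve repair, mitochondrial DNA or nucleotide supply outside S phase, 0 were called by edgeR or DESeq2, 1 was lower and 0 higher at an unadjusted p under 0.05 (6.49% and 9.43% of all genes), and the median was -0.11. Both ATRA libraries were below both ethanol libraries in 3 and above in 3 (21.7% and 23.8% of all genes). MGME1, a mitochondrial nuclease, had 29.1 and 31.6 CPM with ATRA and 42.2 and 53.3 CPM with ethanol (-0.65 ± 0.26, adjusted p 0.297, edgeR). POLG2, the accessory subunit of the mitochondrial polymerase, was at -0.57 ± 0.27 and the repair polymerase POLB at 0.59 ± 0.33. RRM2B is on this list and on that of the other replication genes. The ligases LIG3 and LIG4 were at -0.11 ± 0.24 and 0.08 ± 0.26.

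**Figure D3:**
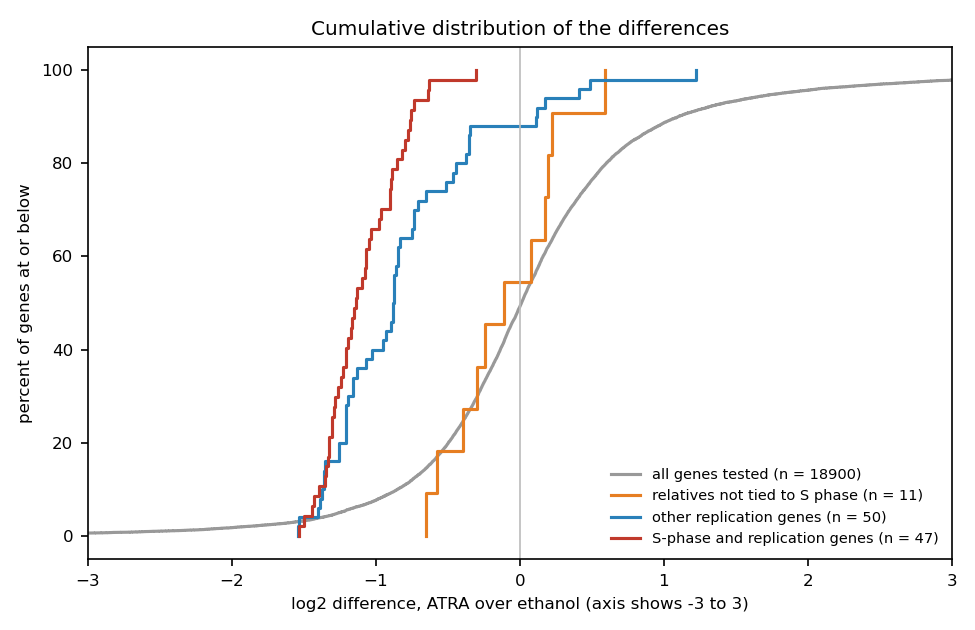
Cumulative share of genes (percent) at or below each log2 difference of ATRA over ethanol for the 47 genes, the 50 other replication genes, the 11 relatives not tied to S phase and the 18900 genes tested. The curve of the 47 genes reaches the top left of 0 (median -1.13), that of the other replication genes has its median at -0.88, and that of the relatives at -0.11 runs near all genes at 0.01; the axis leaves out genes beyond 3 in either direction.

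Ratios of a member to a chosen gene in the same library do not depend on how libraries are scaled. They are ratios of reads after adding 2 reads to each gene, not corrected for length. RRM2 had 2.62 and 6.02 reads per read of RRM2B, the subunit used outside S phase, with ATRA and 10.1 and 9.46 with ethanol. The difference in log2 ratio was -1.30. TK1 had 2.34 and 2.80 reads per read of the mitochondrial kinase TK2 with ATRA and 6.88 and 6.13 with ethanol (-1.34). LIG1 to LIG3 was 0.184 and 0.279 with ATRA and 0.370 and 0.369 with ethanol (-0.71). CDC6 to ORC2 was 0.612 and 0.799 against 1.13 and 1.17 (-0.72), and CCNE2 to CCNE1 was 0.936 and 0.977 against 1.70 and 2.42 (-1.08). In all 5 pairs both ATRA libraries were below both ethanol libraries, as were 21.7% of single genes tested, while the share over pairs of genes was not counted. Each pair sets a member against a gene that differed less between the groups. The count therefore largely restates the values above and is no separate result. Without ATRA replicate 1 the difference was -0.70 for RRM2 to RRM2B and -0.40 for LIG1 to LIG3, and without ATRA replicate 2 it was -1.90 and -1.01. With 2 libraries against 2 an exact two-sided permutation test cannot give less than 0.333, which each of the 5 pairs reached (adjusted p 0.333, exact permutation test), so no pair could pass. The ratio for RRM2 differed between the ATRA libraries more than any other, while TK1 to TK2 and CCNE2 to CCNE1 were nearly the same in both.

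**Figure D4:**
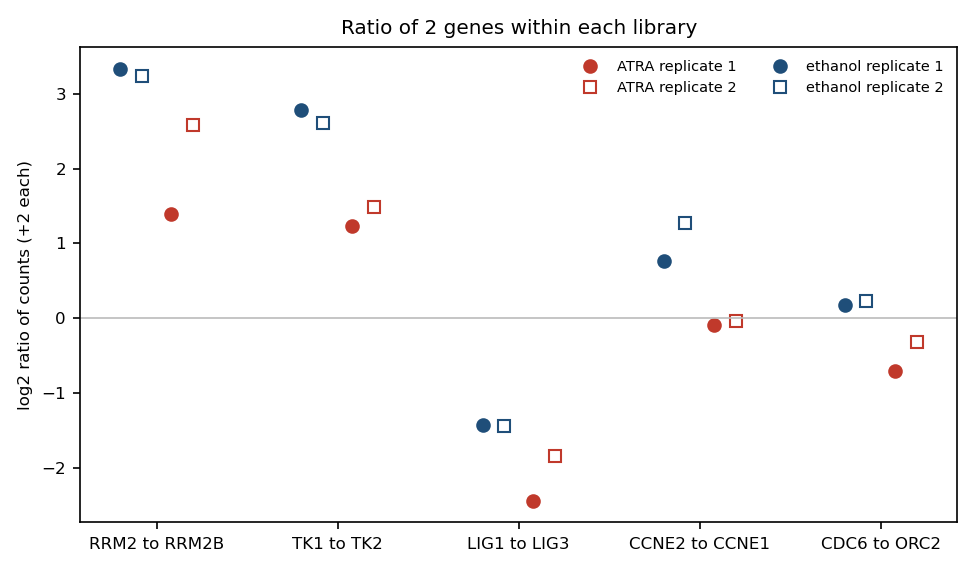
Log2 ratio of reads of 2 genes within each library for 5 pairs, after adding 2 reads to each; red marks are ATRA and blue marks ethanol, filled for replicate 1 and open for replicate 2. In each pair both red marks lie below both blue marks, with differences in the mean of -1.30, -1.34, -0.71, -1.08 and -0.72 from left to right.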

How the data were processed

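RNA was sequenced from 2 ATRA and 2 ethanol libraries. Per the labels' protocols, total RNA was cleared of ribosomal RNA before strand-specific library preparation. The deposited table holds raw counts per gene symbol. Per the submitters' processing notes, STAR 2.5.2b, featureCounts 1.5.1 and build hg19 were used; annotation, strand setting and the fate of shared reads were not given in the sources used here. The table has no rows without a gene.

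All genes were fitted together with edgeR 4.0.16 in R 4.3.3: filterByExpr with a minimum count of 10, TMM scaling, robust quasi-likelihood F test with the group as sole term (2 residual degrees of freedom), Benjamini-Hochberg adjustment over 18900 genes, threshold 0.05, two-sided. Standard errors are the log2 difference over the square root of F. Differences within replicates compare log2 CPM values (prior count 2). DESeq2 1.42.0, limma-voom (limma 3.58.1), other scalings and filters, a replicate block and leaving out each library were alternatives. The procedure was tested on simulated data with a capped spread between libraries and no effect of the replicate number. It was not tested at the full spread of these libraries. Transcript lengths and overlaps came from GENCODE 29 and promoter windows from RefSeq, both of a later build, matched by symbol. Of the listed genes, TWNK and PECAM1 had no match and were not analysed here.

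The 47 genes and the lists were chosen with earlier results of these data known. In each of 9 role groups the 2 genes with the smallest p and the gene with the largest p are given with every library, as is each gene whose groups overlap; of the other replication genes and of the relatives, the 3 genes with the smallest p are given, since none was called. Other members, and genes stated as such, were chosen after their values were seen.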

Additional observations from a re-analysis of the deposited data

How the results depend on the processing

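Of the 47 genes, 0 were called with DESeq2 size factors, upper quartile factors, library size alone, limma-voom or without mitochondrial, ribosomal and 7SL rows, fits that called 0.164%, 0.153%, 0.132%, 0.037% and 0.169% of all genes lower. With every gene of at least 1 count 30 were called lower (1.86% of all genes), with DESeq2 18, and without 1 library between 0 and 33. In all genes the main count of 132 (103 higher, 29 lower) became 1821 without a filter on reads (1126 and 695), 1380 with DESeq2 (877 and 503), 50 with limma-voom (43 and 7), and 870 to 1442 without 1 library (547 to 838 higher, 231 to 604 lower). Of the other replication genes 20 were lower when no gene was filtered out, 13 by DESeq2 and 0 to 21 without 1 library. The median of the 47 genes ranged from -1.57 to -0.81 without 1 library. CCNE1 ranged from -0.91 to 0.11 without 1 library, being above 0 without ATRA replicate 1, the only sign change of a member under the 12 alternatives. The other scalings moved the median of all genes by less than 0.1. Without 1 library the lone sample of a group is assumed to vary like the other group. The cause of these changes was not tested.

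With the title number as a replicate block, 46 of the 47 genes, all but CCNE1, were called lower (9.38% of all genes), and 4098 genes in all (2325 higher, 1773 lower). Of the other replication genes 37 were then lower and 1 higher, and of the relatives 1 lower and 1 higher. The deviations of libraries with the same number from their group means correlated at 0.650 across 16516 genes, which are not independent, but the labels do not say what the number stands for. The fewest reads of a member in a library were 71.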

Other observations

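Several members share sequence with other genes in the GENCODE 29 annotation, and how such reads were counted is not given in the sources used here. Of the 47 genes, 11 share over 5% of their exon length with a gene on the other strand and 4 with a gene on the same strand. Besides TYMS and CCNE2, MCM2 and GINS4 share 23.6% each with genes on the other strand. On the same strand POLA2 shares 35.1%, RRM2 20.2%, PRIM1 16.2% and POLD1 8.64%. Pseudogenes named after a member were rows of the table for 6 genes. Those of DUT held reads equal to 3.67% of the reads of DUT, and those of RRM2 0.529%, while the other 4 genes (PCNA, RFC3, RPA2 and FEN1) had at most 0.265%.

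E2F-type and CCAAT words occurred together in 12 of the 40 promoter windows of members (30%), in 1.84% of the windows of genes tested and in 6 of 40 windows of the other replication genes (15%). No match to any of the 6 words searched was found in 9 of the 40 member windows (22.5%) and in 54.5% of the windows of genes tested.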
